A study of Mus musculus with 4 samples.

Results

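The glutamate release machinery of olfactory sensory neurons is described here through 7 genes of the 22399 in the features table. They were chosen by name and role, with earlier results of these data known, and none of them was used to place a barcode in a class. They are the vesicular glutamate transporters Slc17a6 and Slc17a7, the SNARE proteins Snap25, Vamp2 and Stx1a, the calcium sensor Syt1 and the vesicle membrane protein Syp. Each was followed along the neuronal lineage, in non-neuronal cell types as a background, and across neurons of different odorant receptors.

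The data were 4 droplet single-cell RNA libraries of the main olfactory epithelium, where sensory neurons lie with their precursors and supporting cells. All came from wild-type C57BL/6J mice aged 3 months, with 2 libraries from females (female 1 and female 2) and 2 from males (male 1 and male 2), and no treatment was labelled. Nothing in the labels says how many animals gave each library, so p-values speak for these libraries only. Stages and receptors were compared within libraries, and their p-values measure how those differences vary from library to library. The p-values between the sexes measure the spread between libraries. The series title concerns neurexins, presynaptic organizers, in the targeting of olfactory axons.

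An olfactory sensory neuron sends its axon to a glomerulus of the olfactory bulb, where it releases glutamate onto mitral, tufted and local cells. Glutamate is packed into vesicles by a vesicular transporter. A vesicle fuses with the membrane when Vamp2, a SNARE of the vesicle, zips together with Snap25 and Stx1a, SNAREs of the plasma membrane, and Syt1 couples fusion to the entry of calcium. Syp is an abundant protein of the vesicle membrane and a common marker of presynaptic terminals. The RNA counted here comes from cell bodies in the nose, not from the terminals.

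The libraries held between 100725429 and 111577458 UMIs (unique molecular identifiers, each marking 1 captured RNA molecule) in 10256 to 10777 barcodes. After filters, 8869 to 9339 barcodes per library remained, with median depths of 8240 to 9056 UMIs. Between 136 and 172 barcode sequences were shared by any pair of libraries, at most 1.62% of the smaller one. Neurons were placed in 5 stages by the UMIs of Neurod1, Tex15, Gap43 and Omp: a Neurod1 stage (612 barcodes), a Tex15 stage (1363), a Gap43 stage (1682), a Gap43 and Omp stage (760) and an Omp stage (16973). Omp is the marker of mature olfactory sensory neurons and Gap43 that of growing axons. The stages are an order of markers, not of cells followed in time.

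Markers kept out of the gates changed between the stages, though not all in the same order. The cycling gene Mki67 had 563 ± 61.0 CPM (UMIs per 1000000 UMIs of a summed class; SD, n = 4 libraries) in the Neurod1 stage and 1.66 ± 0.551 CPM (SD, n = 4) in the Omp stage. Gng8, a G protein subunit of immature neurons, was highest in the Gap43 stage with 1035 ± 125 CPM (SD, n = 4). Crabp1, another marker of immature neurons, was highest in the Tex15 stage with 5588 ± 382 CPM and had 196 ± 21.8 CPM in the Gap43 stage (SD, n = 4). Gnal, the olfactory G protein, had 60.6 ± 13.5 CPM (SD, n = 4) in the Neurod1 stage and 3384 ± 64.9 CPM (SD, n = 4) in the Omp stage. Adcy3, another marker of mature neurons, had 122 ± 4.90 CPM in the Tex15 stage, 110 ± 3.84 CPM in the Gap43 stage and 1691 ± 20.9 CPM in the Omp stage (SD, n = 4). Of the Gap43 and Omp barcodes, 63.0% lay near a cut-off, so that stage is a range between its neighbours. Sustentacular markers (all 4 detected in each stage) summed to 1689 to 2425 CPM in the Tex15 stage, 776 to 1568 in the Gap43 stage and 264 to 947 in the other stages, against a mean of 46034 CPM in sustentacular cells. Markers of respiratory ciliated cells (5 of 5 detected) summed to 17.0 to 62.1 CPM up to the Gap43 stage and 199 to 217 CPM in the Omp stage. Their part in the results was not tested.

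**Figure D1:**
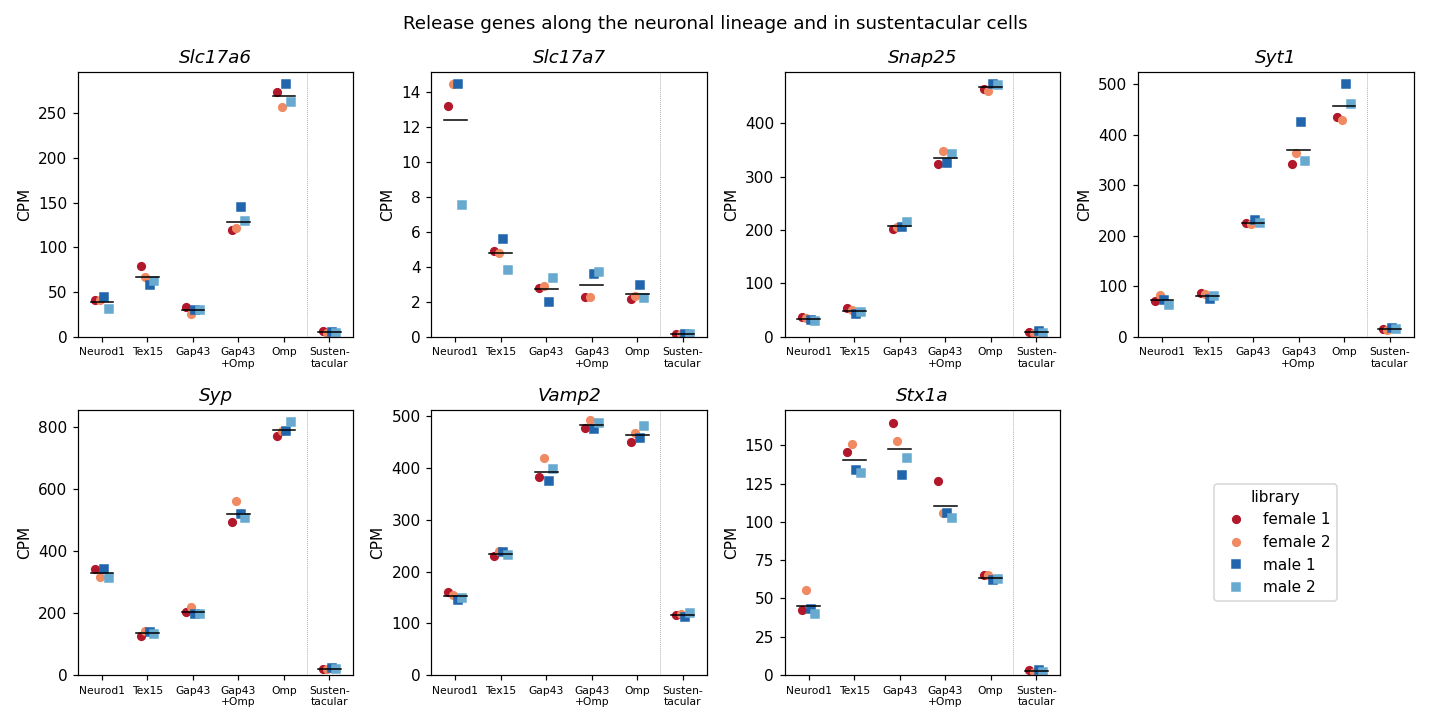
CPM of each gene (y axis, linear from 0, a different scale in each panel) in the 5 lineage stages and in sustentacular cells (x axis). Points are libraries, circles female and squares male, and black lines are means of the 4 libraries. Slc17a6 is low up to the Gap43 stage and highest in the Omp stage, Slc17a7 is highest in the Neurod1 stage, and Stx1a peaks in the Tex15 and Gap43 stages.

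The 2 transporter genes lie on chromosome 7 of GRCm38, both on the plus strand and both protein-coding: Slc17a6 (VGLUT2, ENSMUSG00000030500) at chr7:51622006-51671119 and Slc17a7 (VGLUT1, ENSMUSG00000070570) at chr7:45163949-45176142, per GENCODE M21. Snap25 (ENSMUSG00000027273) spans chr2:136713453-136782428, Vamp2 (ENSMUSG00000020894) chr11:69088490-69092384, Stx1a (ENSMUSG00000007207) chr5:135023482-135051100 and Syp (ENSMUSG00000031144) chrX:7638471-7653256, all on the plus strand. Syt1 (ENSMUSG00000035864) spans chr10:108497650-109010982 on the minus strand.

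The 250 bases upstream of a start are shown for 3 members of differing stage pattern: Slc17a6, which rose late, Slc17a7, which fell, and Stx1a, which peaked early. They are RefSeq promoters on GRCm38.p6, read 5′ to 3′ on the plus strand: chr7:51621580-51621829 for the first of 2 starts of Slc17a6, chr7:45163671-45163920 for Slc17a7 and chr5:135023232-135023481 for Stx1a. Of the 7 members, 5 had an entry, with 7 starts in all. Capitals mark CCCNNGGG (the core of Olf1/EBF sites) and CAGCTG (an E-box), which do not overlap here.
Slc17a6 first start: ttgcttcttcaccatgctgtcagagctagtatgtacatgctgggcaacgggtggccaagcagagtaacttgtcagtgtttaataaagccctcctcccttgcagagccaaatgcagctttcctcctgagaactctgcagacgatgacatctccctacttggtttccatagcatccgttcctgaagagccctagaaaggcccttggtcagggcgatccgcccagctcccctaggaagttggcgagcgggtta
Slc17a7: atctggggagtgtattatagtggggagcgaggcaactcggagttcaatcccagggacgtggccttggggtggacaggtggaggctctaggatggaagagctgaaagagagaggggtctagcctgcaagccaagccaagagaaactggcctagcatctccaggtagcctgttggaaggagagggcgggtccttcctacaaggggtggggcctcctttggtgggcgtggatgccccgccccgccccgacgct
Stx1a: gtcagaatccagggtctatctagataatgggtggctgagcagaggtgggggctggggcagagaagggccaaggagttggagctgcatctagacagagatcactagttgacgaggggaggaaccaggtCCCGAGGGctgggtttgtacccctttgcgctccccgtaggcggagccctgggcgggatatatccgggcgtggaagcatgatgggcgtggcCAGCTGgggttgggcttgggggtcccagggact
In these 3 windows, CCCNNGGG and CAGCTG each occurred only upstream of Stx1a, 123 and 33 bases before the start. TGACG (the core of cyclic AMP response elements, left in lower case) occurred there too, 144 bases before the start. The E-box CAGATG occurred in none of the 3, and once at the second Slc17a6 start, 205 bases before it. Among the starts not shown, CAGCTG also occurred at a start of Syt1, 31 bases before it, and TGACG at the second Slc17a6 start, 102 bases before it. Searched on both strands of 32851 promoter windows of the same length, CCCNNGGG was found in 11.8%, CAGCTG in 13%, CAGATG in 14.4% and TGACG in 17.8%. A match is a string of letters and not a shown binding site.

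Slc17a6, the transporter that loads vesicles with glutamate in many subcortical neurons, did not rise steadily. It had 41.1, 41.2, 44.0 and 31.4 CPM in the Neurod1 stage of female 1, female 2, male 1 and male 2. In the Tex15 stage it had 79.1, 66.8, 57.9 and 62.2 CPM in the same order. In the Gap43 stage it had 32.9, 25.7, 29.5 and 29.9 CPM. All 4 libraries were thus higher in the Tex15 stage than on either side of it, without overlap. With Omp the level climbed to 119, 121, 145 and 129 CPM in the Gap43 and Omp stage. It reached 273, 257, 282 and 262 CPM in the Omp stage. With edgeR (quasi-likelihood, Benjamini-Hochberg over 12737 genes) the log2 fold change was 0.70 ± 0.11 (SE; adjusted p = 2.97e-05) from the Neurod1 to the Tex15 stage. It was -1.20 ± 0.093 (SE; adjusted p = 4.74e-09) from the Tex15 to the Gap43 stage. With the first Omp it was 2.27 ± 0.089 (SE; adjusted p = 7.23e-13), and into the Omp stage 1.18 ± 0.068 (SE; adjusted p = 1.56e-10). Growing, Gap43-positive neurons without Omp therefore held the lowest Slc17a6 level of the lineage, 29.5 ± 2.96 CPM (SD, n = 4), and the Omp stage the highest, 269 ± 11.3 CPM (SD, n = 4).

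Slc17a7, the vesicular glutamate transporter of many cortical neurons, went the other way at low counts. Its level was 13.2, 14.4, 14.4 and 7.53 CPM in the Neurod1 stage, from 88 UMIs in all, and 4.91, 4.82, 5.57 and 3.83 CPM in the Tex15 stage. The groups did not overlap, and the log2 fold change was -1.43 ± 0.26 (SE; adjusted p = 0.000119, edgeR). The means of the later stages were 2.76 ± 0.571 CPM (Gap43 stage), 2.97 ± 0.785 CPM (Gap43 and Omp stage) and 2.42 ± 0.372 CPM (Omp stage; SD, n = 4 each). The further fall into the Gap43 stage, by 0.80 ± 0.27 (SE; adjusted p = 0.0148, edgeR), did not pass without female 1 (adjusted p = 0.0730), without female 2 (0.0534) or without male 1 (0.121). The last 2 steps, log2 fold changes of 0.24 ± 0.29 and -0.18 ± 0.27 (SE), did not pass.

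At least 1 Slc17a6 UMI was found in 79.9% of Omp-stage barcodes (78.2% to 81.6% by library) at a median depth of 7591 UMIs. In sustentacular cells, supporting cells with no known glutamate release, the share was 5.19% at a median depth of 12540.5 UMIs. With each barcode thinned to 2000 UMIs the shares were 42.1% and 0.807%, leaving out 775 and 256 shallower barcodes. Slc17a7 had a UMI in 1.77% of Omp-stage barcodes and in 0.190% of sustentacular ones. Of the 300 Omp-stage barcodes with Slc17a7, 261 (87.0%) also had Slc17a6, and 79.7% of the other barcodes did. The barcodes with Slc17a7 were deeper (medians of 8811.5 and 7563 UMIs), and the part of depth in this difference was not tested.

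Snap25, the plasma membrane SNARE cut by botulinum toxin A, rose at every step. It had 37.7, 34.8, 32.2 and 29.5 CPM in the Neurod1 stage and 53.1, 49.8, 42.4 and 47.1 CPM in the Tex15 stage. The largest step followed, to 202, 206, 205 and 216 CPM in the Gap43 stage. The Gap43 and Omp stage held 324, 348, 327 and 342 CPM, and the Omp stage 465, 461, 473 and 471 CPM. No stage overlapped another in any library. The log2 fold changes of the 4 steps were 0.46 ± 0.082, 2.08 ± 0.057, 0.84 ± 0.049 and 0.60 ± 0.046 (SE), and the adjusted p of the second was 1.06e-14 (edgeR).

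Syt1, the calcium sensor of fast release, followed nearly the same course. It was at 71.5, 82.3, 73.5 and 62.1 CPM in the Neurod1 stage and at 86.5, 84.5, 74.3 and 81.0 CPM in the Tex15 stage. These overlapped, and the difference of 0.11 ± 0.086 on the log2 scale (SE; adjusted p = 0.276, edgeR) did not pass. The Gap43 stage lay at 226 ± 3.57 CPM (SD, n = 4), the Gap43 and Omp stage at 370 ± 37.7 CPM (SD, n = 4) and the Omp stage at 456 ± 32.4 CPM (SD, n = 4). All 3 later steps passed, with log2 fold changes of 1.45 ± 0.070, 0.86 ± 0.063 and 0.42 ± 0.060 (SE).

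Vamp2, the vesicle SNARE, rose at each of the first 3 steps. It went from 152 ± 6.93 CPM (SD, n = 4) in the Neurod1 stage through 235 ± 4.36 CPM to 393 ± 20.2 CPM in the Gap43 stage and 483 ± 8.39 CPM in the Gap43 and Omp stage. The 3 steps had log2 fold changes of 0.56 ± 0.045, 0.73 ± 0.040 and 0.45 ± 0.039 (SE), all with adjusted p at or under 3.33e-08 (edgeR). The Omp stage had 450, 468, 458 and 482 CPM against 478, 493, 475 and 487 CPM in the Gap43 and Omp stage, lower in 4 of 4 libraries by unscaled CPM. With TMM scaling, without which the median of all genes moved by -0.115 in this comparison, the log2 fold change was 0.06 ± 0.038 (SE; adjusted p = 0.211, edgeR), and its sign turned without scaling (-0.06).

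Stx1a, the plasma membrane partner of Snap25, peaked early. It had 42.6, 55.6, 43.3 and 39.5 CPM in the Neurod1 stage and 145, 151, 134 and 132 CPM in the Tex15 stage. The log2 fold change of 1.57 ± 0.078 (SE; adjusted p = 1.79e-11, edgeR) was the largest among the members at this step. The level stayed at 165, 153, 131 and 142 CPM in the Gap43 stage, which overlapped the Tex15 stage (log2 fold change 0.05 ± 0.057, SE; adjusted p = 0.429). It then fell to 110 ± 11.1 CPM (SD, n = 4) in the Gap43 and Omp stage and to 65.3, 65.1, 61.8 and 62.7 CPM in the Omp stage, with log2 fold changes of -0.27 ± 0.061 and -0.67 ± 0.059 (SE). With the Tex15 stage taken from 5 UMIs of Tex15 in place of 2, which leaves out 25.6% of its barcodes and was chosen after the data were seen, Stx1a fell by 0.41 (adjusted p = 6.53e-05) into the Gap43 stage.

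Syp, the vesicle membrane protein, dipped before it rose. Its level was 342, 315, 340 and 314 CPM in the Neurod1 stage and 125, 143, 139 and 133 CPM in the Tex15 stage. Every library lost more than it kept at this step, and the log2 fold change was -1.34 ± 0.056 (SE; adjusted p = 1.66e-12, edgeR). The Gap43 stage held 204 ± 9.58 CPM (SD, n = 4), the Gap43 and Omp stage 519 ± 30.1 CPM (SD, n = 4) and the Omp stage 771, 785, 785 and 814 CPM. The rises were 0.58 ± 0.054, 1.5 ± 0.051 and 0.72 ± 0.049 (SE) on the log2 scale.

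All 7 members passed the filter on low counts in these comparisons. From the Neurod1 to the Tex15 stage 4 members rose and 2 fell, where 29.9% of all genes tested rose and 31.2% fell. Into the Gap43 stage 4 rose and 2 fell, against 32.6% and 32.3% of all genes. With the first Omp 5 rose and 1 fell, against 28% and 26.3%. Into the Omp stage 4 rose and 1 fell, against 27.6% and 25.2%. Between the ends of the lineage 6 rose and Slc17a7 fell, where 42.1% of all genes rose and 41.1% fell. Over that span the log2 fold changes were 3.98 ± 0.065 for Snap25, 2.95 ± 0.090 for Slc17a6, 2.84 ± 0.075 for Syt1, 1.79 ± 0.044 for Vamp2, 1.45 ± 0.051 for Syp, 0.68 ± 0.077 for Stx1a and -2.16 ± 0.24 for Slc17a7 (SE). The step of largest rise differed: it was the first for Stx1a, that into the Gap43 stage for Snap25, Syt1 and Vamp2, and that with the first Omp for Slc17a6 and Syp.

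**Figure D2:**
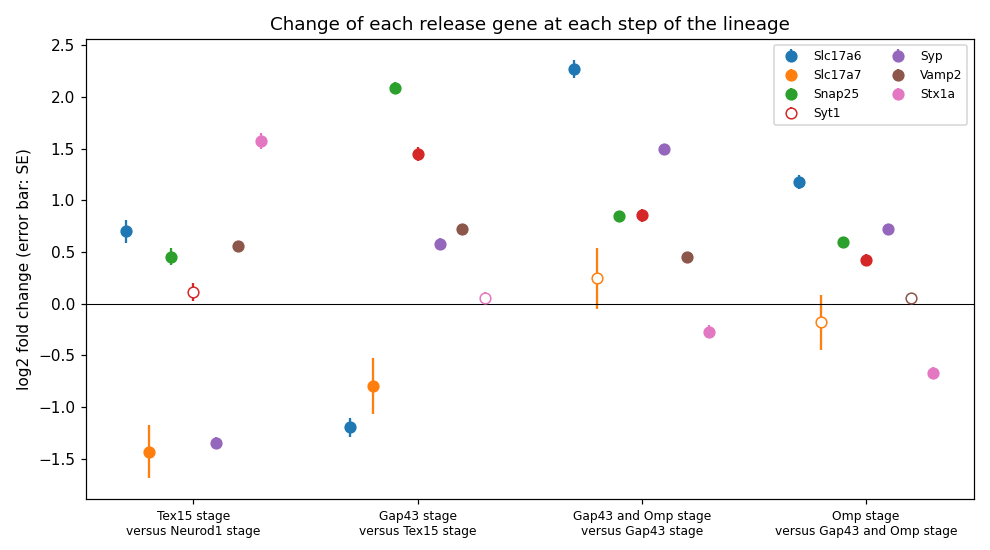
Log2 fold change of each member (y axis, error bars SE) at the 4 successive steps (x axis). Filled points passed an adjusted p of 0.05 and open points did not. Slc17a6 falls by 1.20 into the Gap43 stage and rises by 2.27 with the first Omp, while Snap25 rises at all 4 steps.

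The patterns over the 20 sums of library and stage were close for some members and opposed for others, given here as description since the sums share libraries. Snap25 and Syt1 had a Pearson r of 0.99 of log2(CPM + 1), Snap25 and Vamp2 0.97, and Slc17a6 and Syp 0.75. Slc17a7 and Vamp2 had -0.90, and Stx1a and Syp -0.56. Among 7970 genes with a mean of at least 20 CPM and no odorant receptors, the patterns most like Slc17a6 were those of Usp21 (r 0.97), Il6st (0.97) and Nptx2 (0.97). Those most like Snap25 were Nxph3, Bbs7 and Gnb1 (0.996 each), and those most like Syt1 were Snap25, Adam22 and Manea (0.99 each). For Vamp2 they were Rtp1, Bmyc and Cntn4 (0.99 each), and for Syp Tnfrsf21 (0.98), Slc9a9 (0.97) and Nav3 (0.97). For Stx1a they were Arrb2 (0.98), Sh3gl2 (0.97) and Marchf8 (0.97), and for Slc17a7 Ccser2 (0.95), Picalm (0.94) and Eed (0.94). Sh3gl2 (endophilin) and Picalm act in endocytosis and belong to the wider list below.

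The members were set beside a wider list of 117 release genes, likewise chosen with earlier results of these data known. Of these, 116 were in the features table and 95 passed the filter. From the Neurod1 to the Tex15 stage 53 rose and 11 fell, with a median log2 fold change of 0.52 against 0.0074 for all genes. Of all genes tested 29.9% rose and 31.2% fell. Vesicle proteins rose in 11 of 17 and other SNAREs in 9 of 12, SNARE regulators rose in 4 of 14 and fell in 3, and calcium sensors rose in 5 of 11 and fell in 2. Cacna1e, a calcium channel subunit, rose from 2.38 ± 1.19 to 22.7 ± 3.75 CPM (SD, n = 4). The calcium sensor Syt3 rose from 0.134 ± 0.267 to 1.83 ± 0.874 CPM (SD, n = 4), and Syt10 was at 0 UMIs in the Neurod1 stage (which allows up to 0.427 CPM, from 3 counts over the 4 libraries and for counting error only) and at 0.915 ± 0.483 CPM (SD, n = 4) in the Tex15 stage. The largest falls were those of Syt13 (24 ± 6.28 to 3.64 ± 1.02 CPM), Sv2b, a vesicle glycoprotein (53.9 ± 8.77 to 18.5 ± 2.53 CPM), and Stxbp2, a SNARE regulator (30.0 ± 5.62 to 12.5 ± 2.78 CPM; SD, n = 4 each).

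Into the Gap43 stage 56 of the 95 rose and 22 fell, with a median of 0.37 against 0.0058 for all genes, of which 32.6% rose and 32.3% fell. SNARE regulators rose in 10 of 14 and genes of endocytosis in 7 of 9, vesicle proteins rose in 8 of 17 and fell in 5, and calcium sensors rose in 4 of 11 and fell in 3. Sv2c rose from 16.9 ± 2.52 to 99.7 ± 11 CPM, Sv2a from 8.11 ± 2.0 to 34.8 ± 4.47 CPM and Gabbr2, a subunit of the presynaptic GABA-B receptor, from 17.4 ± 1.59 to 93.2 ± 8.06 CPM (SD, n = 4 each). The sensors Syt2 and Syt13 fell, to 0.650 ± 0.283 and 0.260 ± 0.198 CPM (SD, n = 4). Gad2, an enzyme of GABA synthesis, fell from 32.6 ± 2.83 to 4.95 ± 1.11 CPM (SD, n = 4).

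With the first Omp 48 rose and 25 fell, with a median of 0.21 against -0.04 for all genes, of which 28% rose and 26.3% fell. SNARE regulators rose in 10 of 14 and fell in 0, vesicle proteins rose in 11 of 17 and fell in 2, and active zone genes rose in 7 of 19 and fell in 9. Drd2, the dopamine receptor by which dopamine reduces release from these axons, rose from 3.42 ± 1.09 to 42.8 ± 6.48 CPM (SD, n = 4). Syt10 rose to 4.99 ± 2.36 CPM and the glutamate transporter Slc1a2 from 3.79 ± 1.82 to 12.4 ± 1.38 CPM (SD, n = 4). Gad2 fell to 0.283 ± 0.365 CPM, Lin7a from 1.31 ± 0.427 to 0.191 ± 0.221 CPM and Cacna1e from 8.20 ± 0.262 to 1.62 ± 0.851 CPM (SD, n = 4 each). Without scaling 37 of the list rose and 30 fell at this step, and the share of all called genes that rose went from 51.5% to 34.9%.

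Into the Omp stage more of the list fell than rose, 37 against 26 (47 against 20 without scaling), with a median of -0.14 against 0.016 for all genes, of which 27.6% rose and 25.2% fell. Active zone genes fell in 11 of 19 and rose in 2, SNARE regulators rose in 6 of 14 and fell in 2, and vesicle proteins rose in 7 of 17 and fell in 5. Other SNAREs fell in 5 of 12 and rose in 1, and genes of endocytosis fell in 5 of 9 and rose in 1. Calcium sensors fell in 5 of 11 and rose in 4. The share of all called genes that rose was 52.3% with scaling and 37.3% without. Slc1a2 rose to 124 ± 4.80 CPM, Syt3 from 1.68 ± 0.489 to 8.41 ± 0.639 CPM and the vesicle protein Syngr1 from 45.4 ± 4.66 to 141 ± 3.36 CPM (SD, n = 4 each). Slc38a1, a glutamine transporter, fell from 57.3 ± 3.99 to 6.64 ± 0.737 CPM, the vesicle GTPase Rab3c from 27.6 ± 3.17 to 4.35 ± 0.432 CPM and Doc2b from 1.34 ± 0.684 to 0.123 ± 0.0885 CPM (SD, n = 4 each). Slc17a6, Snap25, Syt1 and Syp thus still rose at the step where the wider list fell more often than it rose. Over the whole span from the Neurod1 to the Omp stage, 63 of the 95 rose and 21 fell.

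**Figure D3:**
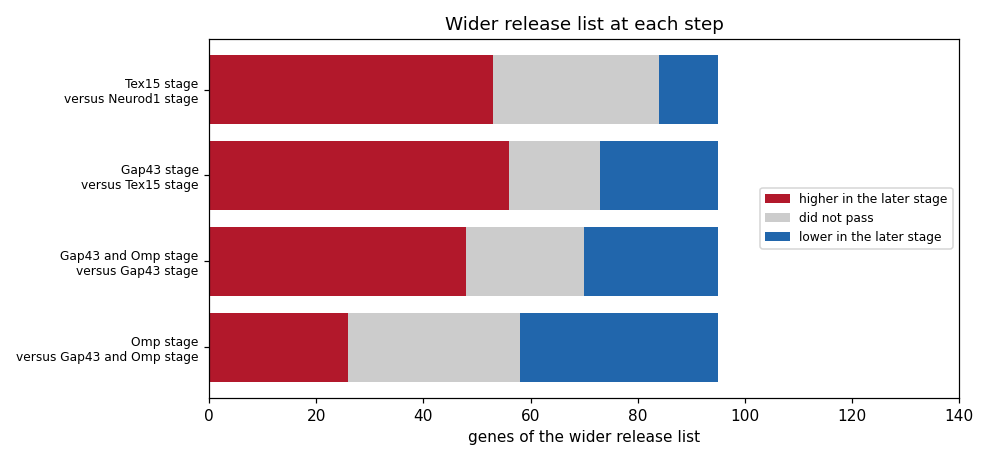
Number of the 95 tested genes of the wider list (x axis) that were higher in the later stage (red), lower (blue) or did not pass (grey) at each successive step (y axis). The higher count goes from 53 and 56 to 48 and then 26, and the lower count from 11 to 37.

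Non-neuronal cells gave the background. All 7 members were higher in the Omp stage than in sustentacular cells, where 47.2% of all genes tested were higher and 39.9% lower. The log2 differences were 5.65 ± 0.081 for Snap25, 5.61 ± 0.073 for Slc17a6, 5.16 ± 0.056 for Syp, 4.72 ± 0.077 for Syt1, 4.5 ± 0.099 for Stx1a, 3.75 ± 0.31 for Slc17a7 and 1.87 ± 0.036 for Vamp2 (SE). Omp itself, which sustentacular cells do not make, was there at 152 ± 2.04 CPM (SD, n = 4), or 1.74% of its Omp-stage level (1.65% to 1.82% by library). The part of free RNA in these levels was not tested. Omp was also a gate gene. Barcodes of a non-neuronal type with at least 5 UMIs and 1000 CPM of Omp were left out, and the Omp stage required both. No member was used in a gate, so the share of Omp may be low by selection, which was not tested.

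Read against that share, Slc17a6 (1.88%, 1.61% to 2.23% by library) and Snap25 (1.84%, 1.57% to 2.34%) lay at it, above it in 2 and 1 of 4 libraries. Syp (2.58%), Syt1 (3.49%) and Stx1a (4.07%) lay above it in 4 of 4 libraries. Of the mature markers kept out of the gates, sustentacular cells had 49.3 CPM of Adcy3, 101 of Gng13, 64.9 of Gnal, 20.6 of Cnga2 and 184 of Stoml3. In the Omp stage these had 1691, 4494, 3384, 1046 and 10275 CPM in the same order. Lying above the share of Omp therefore does not place a gene above other RNA of mature neurons. The percentage of Stx1a is taken of 63.7 CPM in the Omp stage, where the Tex15 and Gap43 stages had 140 and 148 CPM. Omp was highest in the Omp stage, so the shares of Stx1a and Omp have unlike bases. Slc17a7 was at 6.46% from 2 UMIs in each library, too few for an order. Vamp2 stood apart at 25.2% (24.6% to 26.0%), with 117, 118, 113 and 120 CPM in sustentacular cells. Vamp2 was above the share of Omp in 4 of 4 libraries in each of the 9 non-neuronal types described.

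Among those types Vamp2 was highest, relative to the Omp stage, in tuft-like microvillar cells, chemosensory cells of the epithelium (52.2%, 42.4% to 56.6% by library; 194 barcodes), and in ionocyte-like microvillar cells (46.8%, 37.4% to 51.6%; 245 barcodes). It was lowest in respiratory ciliated cells (12.8%, 11.6% to 14.8%; 195 barcodes). Syp was at 72.5 ± 12.2 CPM (SD, n = 4) in ensheathing glia, the glia around olfactory axons, or 9.21% of the Omp stage (6.99% to 10.7%) where Omp was at 2.94%, above Omp in 4 of 4 libraries from 94 UMIs. Stx1a was above the Omp share in 4 of 4 libraries in horizontal basal cells (4.43% against 1.79%, from 28 UMIs), fibroblasts (13.7% against 1.5%, from 11 UMIs) and ionocyte-like cells (11.5% against 2.01%, from 12 UMIs). These percentages of Stx1a are of its low Omp-stage level, and the part of free RNA from the younger stages was not tested. Slc17a6 was above the Omp share in 4 of 4 libraries in 1 of the 9 types, fibroblasts (3.06%, from 10 UMIs). Adcy3 had 55.8 CPM in fibroblasts and 1691 CPM in the Omp stage. Snap25 was above the Omp share in 4 of 4 libraries in macrophages (3.46% against 2.34%, from 37 UMIs). So was Syt1 in ionocyte-like cells (3.68% against 2.01%, 31 UMIs) and ciliated cells (3.11% against 1.18%, 38 UMIs). Syp was too, in fibroblasts (3.29% against 1.5%, 31 UMIs) and tuft-like cells (3.23% against 2.16%, 29 UMIs). Neutrophils held 339681 UMIs in all, so that 0 UMIs there allow up to 8.83 CPM.

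**Figure D4:**
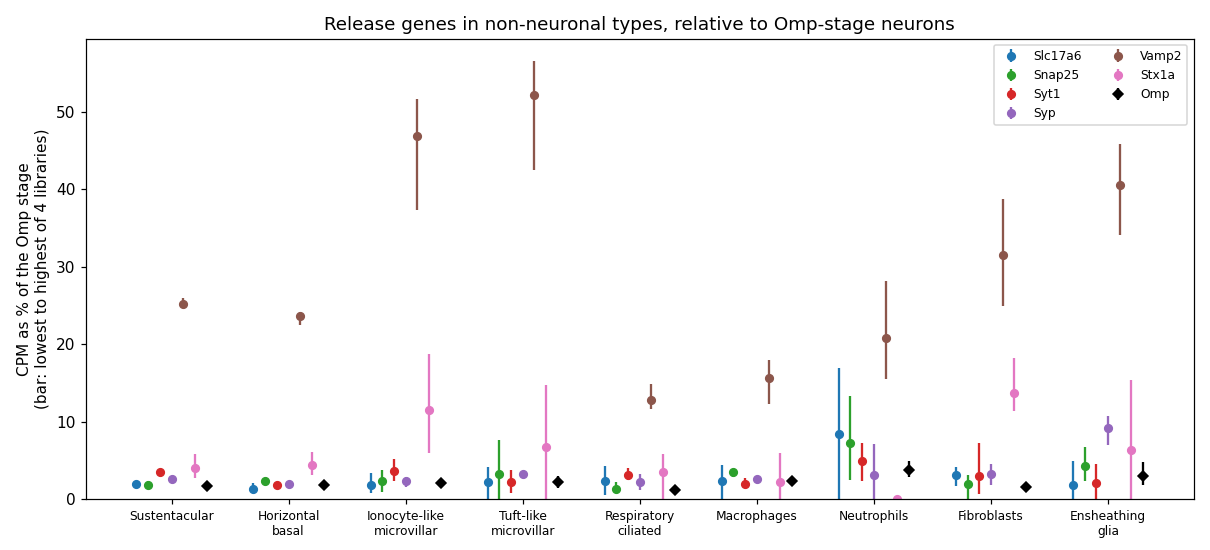
Mean CPM of each gene in a non-neuronal type as a percentage of its Omp-stage level (y axis, linear from 0), by type (x axis). Points are means of 4 libraries, bars run from the lowest to the highest library and black diamonds are Omp. Slc17a7, with 0 to 8 UMIs per type, is not drawn. Vamp2 lies between 12.8% and 52.2%, and in each type the other genes drawn lie below it. Stx1a reaches 13.7% in fibroblasts and Syp 9.21% in ensheathing glia, where Omp is at 1.5% and 2.94%.

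Within the Omp stage the levels depended on the depth of the barcode. Barcodes under 4000 UMIs (3177, or 18.7%) had 381 ± 16.0 CPM of Slc17a6 and deeper ones 261 ± 11.3 CPM, and Syt1 had 685 ± 60.6 and 440 ± 30.2 CPM (SD, n = 4). Both were higher in the shallow barcodes in 4 of 4 libraries. Stx1a had 85.6 ± 7.42 and 62.2 ± 1.62 CPM, Syp 693 ± 24.4 and 795 ± 18.1 CPM, and Vamp2 396 ± 18.7 and 469 ± 13.9 CPM (SD, n = 4), so these did not move one way. Snap25 was at 466 ± 13.8 and 468 ± 5.23 CPM (SD, n = 4), closer than the spread of the libraries. Without the shallow barcodes Vamp2 passed into the Omp stage (log2 fold change 0.10, adjusted p = 0.0479, edgeR).

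Between the sexes no member passed in the Omp stage, where 3 of 13816 genes (0.0217%) did by edgeR. The lowest p was that of Syt1, 434 and 429 CPM in females against 500 and 461 CPM in males, groups that did not overlap. Its log2 fold change of male over female was 0.19 ± 0.049 (SE; unadjusted p = 0.0154, adjusted p = 0.803, edgeR). By DESeq2, which called 226 genes, Syt1 passed with 0.19 (adjusted p = 0.0107). Slc17a6 had 273 and 257 CPM in females and 282 and 262 CPM in males, which overlapped (0.07 ± 0.056, SE; adjusted p = 0.885). The differences of the remaining 5 members ran from -0.03 (Stx1a) to 0.23 (Slc17a7) on the log2 scale. None of 96 tested genes of the wider list passed by edgeR, and 6 had an unadjusted p under 0.05, as did 775 of all genes.

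Each mature neuron transcribes mainly 1 odorant receptor gene, and neurons of 1 receptor send their axons to the same glomeruli. Of 17733 Omp-positive barcodes 15657 (88.3%) were assigned to a receptor, and 53 receptors had at least 10 barcodes in each library (4597 barcodes, 47 to 285 per receptor). Slc17a7 did not reach a mean of 1 count per sum and was not tested. Of the other 6 members 5 differed between receptors, where 28.8% of 9690 genes did, and so did 36 of 80 tested genes of the wider list (45.0%). The spread of the members was not large: the median SD over receptor means was 0.278 on the log2 scale for all tested genes and 0.283 for the list. Snap25 (0.27) and Slc17a6 (0.28) lay near these medians, and Syt1 (0.15), Syp (0.13) and Vamp2 (0.12) below them. The part of count depth in the calls was not tested. Among the list genes of lowest p were Rims3 (an active zone protein), Rab3b (a vesicle GTPase), Syt4 and Glul (glutamine synthetase), with SDs over receptor means of 1.09, 0.52, 0.56 and 0.30 on the log2 scale.

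Snap25 had the clearest receptor difference of the members (F = 8.81, adjusted p = 1.19e-28, edgeR; SD over receptors 0.27 on the log2 scale, SE of a receptor mean 0.092). Receptor means ran from 300 to 657 CPM with a median of 490 CPM. Olfr741 was highest with 644, 703, 615 and 666 CPM in the 4 libraries, followed by Olfr166 (594 ± 70.3 CPM) and Olfr1509 (597 ± 22.6 CPM; SD, n = 4). Lowest were Olfr1260 (300 ± 56.0 CPM), Olfr731 (306 ± 37.2 CPM) and Olfr728 with 288, 312, 278 and 324 CPM. Every library of Olfr741 was above every library of these 3. All of them were picked by these same values, so their separation was partly set by the picking. The mean over females followed that over males across the 53 receptors with r = 0.77.

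Slc17a6 also differed (F = 5.11, adjusted p = 4.99e-16, edgeR; SD 0.28, SE of a mean 0.14). Olfr2 (322 ± 43.9 CPM), Olfr211 (329 ± 85.5 CPM) and Olfr1508 (287 ± 16.3 CPM; SD, n = 4) were highest. Olfr1178 had 109, 107, 199 and 75.4 CPM, Olfr728 165, 97.3, 114 and 133 CPM, and Olfr1507 111, 117, 159 and 120 CPM. Gap43 was at 362 CPM in Olfr1178, 76.7 CPM in Olfr728 and 230 CPM in Olfr1507, against a median of 99.6 CPM and an upper quartile of 152 CPM over receptors, and its part in the low Slc17a6 was not tested. These 3 lay at 6.97 to 7.16 in mean log2 CPM, below the next receptor, Olfr727, at 7.64. Females followed males with r = 0.58 over 53 receptors and 0.23 over the 50 without them, and the SD over receptor means was 0.28 and 0.19. The 3 were picked as the lowest in these same values. Leaving out such values lowers the SD and can lower r by itself, so the drop does not measure the part of these receptors.

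The same 3 receptors were among the 4 lowest in S100a5, a calcium-binding protein of mature neurons whose level is known to follow odor-driven activity, with 456 to 895 CPM against a median of 12481 CPM. S100a5 was looked at after its variation between receptors was known. Slc17a6 in females followed S100a5 in males with r = 0.67 over 53 receptors and 0.38 over 50, and the reverse pairing gave 0.73 and 0.49. The 50 again leave out the 3 picked by their Slc17a6, with the same limit. For Snap25 and S100a5 the values were 0.34 and 0.42 over 53. They were 0.45 and 0.31 for Syt1, 0.31 and 0.28 for Syp, 0.02 and 0.06 for Vamp2, and 0.01 and 0.26 for Stx1a. For Syt1 its own r of females and males was 0.36. Olfr1110 was the third lowest in S100a5 (878 CPM) with Slc17a6 at 196 CPM, the sixth lowest in mean log2 CPM.

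**Figure D5:**
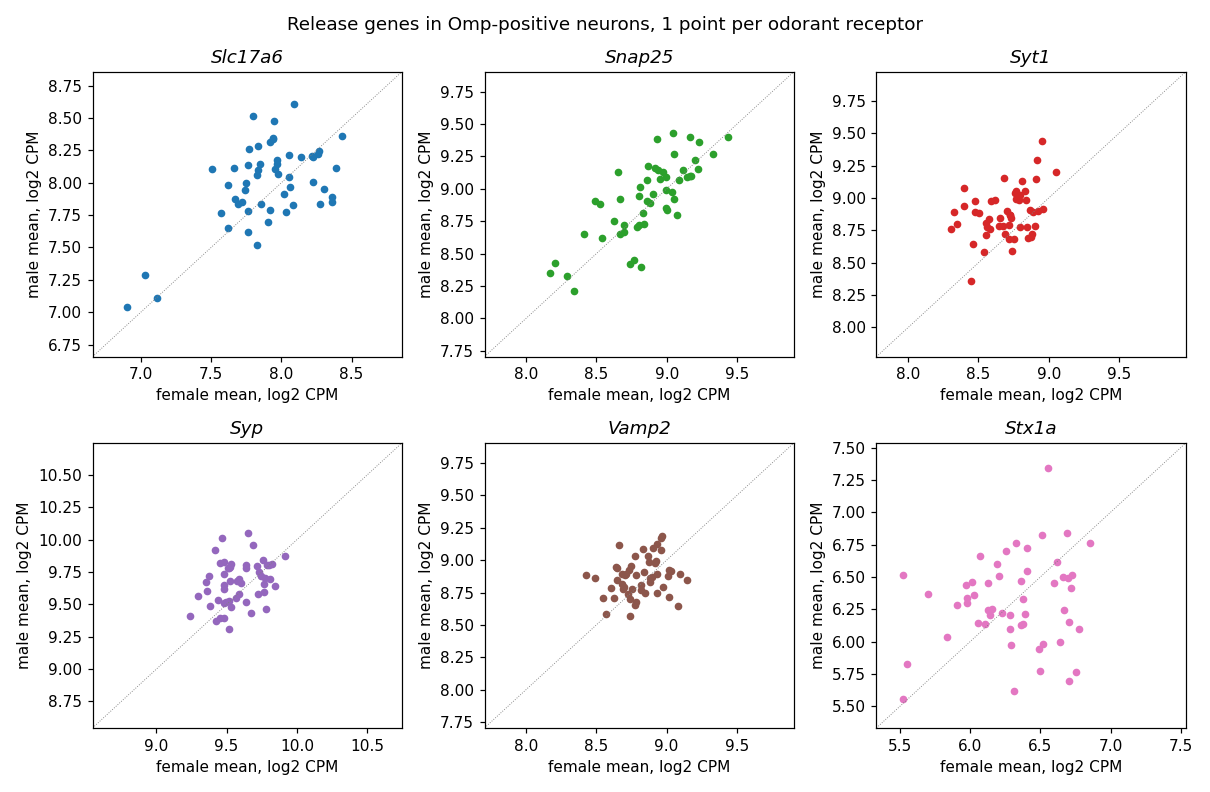
Mean log2 CPM (TMM-scaled, prior count of 2) in the 2 female libraries (x axis) and the 2 male libraries (y axis), 1 point per receptor (53), in 6 panels of equal width, with the line of equality dotted. Snap25 follows the line with r = 0.77, 3 receptors lie apart at the low end of Slc17a6, and Stx1a and Vamp2 form clouds with r of 0.17 and 0.24.

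Of the remaining members, 3 passed, with SDs of 0.12 to 0.15. Syt1 (adjusted p = 0.000109, edgeR; SD 0.15) ran from 336 CPM in Olfr1178 to 591 CPM in Olfr211, with Olfr309 and Olfr1301 next highest (537 and 561 CPM) and Olfr1260 and Olfr140 next lowest (365 and 363 CPM). With at least 20 barcodes per library Syt1 did not pass (adjusted p = 0.0726, edgeR). Syp (adjusted p = 0.000309, edgeR; SD 0.13) was highest in Olfr455, Olfr329 and Olfr775 (933, 936 and 931 CPM) and lowest in Olfr124, Olfr1206 and Olfr286 (659, 656 and 682 CPM). Vamp2 (SD 0.12; highest in Olfr1509, Olfr1336 and Olfr731, lowest in Olfr726, Olfr727 and Olfr286) passed at adjusted p = 0.0381 but in no run without 1 of the libraries (adjusted p 0.0507 to 0.449). Stx1a had an SD of 0.26 from a median of 12 UMIs per sum and did not pass (adjusted p = 0.126). It passed with receptors of at least 5 barcodes per library (0.0172), of at least 20 (0.0143) and without Gap43-positive barcodes (0.0331), where Vamp2 did not (0.295, 0.0593 and 0.150).

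Snap25 and Slc17a6 were also fitted without immature or shallow barcodes. Without Gap43-positive barcodes the SD was 0.28 for Snap25 (adjusted p = 2.13e-28, edgeR) and 0.25 for Slc17a6 (adjusted p = 5.35e-13). Mean depth ran from 6385 to 10626 UMIs per barcode over receptors, and Olfr728, low in both genes, had the highest. With barcodes under 4000 UMIs left out, the SD was 0.30 for both genes (adjusted p = 5.18e-27 and 1.16e-13). Between members the r over receptors, with 1 gene taken in females and the other in males and then the reverse, was 0.37 and 0.20 for Slc17a6 and Snap25, 0.31 and 0.27 for Slc17a6 and Syt1, and 0.08 and 0.45 for Snap25 and Syt1. It was 0.28 and 0.26 for Syp and Vamp2 and -0.02 both ways for Snap25 and Vamp2, where Vamp2 against itself gave 0.24.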

How the data were processed

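The deposited files hold whole-number counts of UMIs per gene and barcode, made by the authors with Cell Ranger, version 6.0.2 per the file headers and 5.0.1 per the submitters' processing notes, which name mm10. Here barcodes with at least 500 genes and at most 10% mitochondrial UMIs were kept, and simulated doublets (8.20% to 8.62% of passing barcodes) were removed. Omp-positive meant at least 5 UMIs and 1000 CPM of Omp, Gap43-positive at least 5 UMIs and 500 CPM, and Tex15- or Neurod1-positive at least 2 UMIs. Barcodes fitting a neuronal gate and a non-neuronal type, or more than 1 non-neuronal type (4399 together), or no gate (3485) were left out. Gap43 was not held against ensheathing glia. A receptor was assigned from at least 3 UMIs and 80% of a barcode's receptor UMIs. Counts were summed per library and class and tested with edgeR 4.0.16 in R 4.3.3 (quasi-likelihood, TMM, Benjamini-Hochberg, threshold 0.05), with the library as a block except between sexes. DESeq2 1.42.0 was an alternative. The scripts were tested on simulated data. Receptors and list genes were named by rank: per direction and step, the 3 list genes of largest change with 1 sign in all 4 libraries; between receptors, the 5 of lowest p (1 is not reported here) and the 3 receptors at each end; per member, the 3 genes of highest r. The members and lists were chosen with earlier results of these data known. Levels are not divided by transcript length, so levels of different genes are not compared.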

Additional observations from a re-analysis of the deposited data

Results flagged for a closer look

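Slc17a7 moved in opposite directions in the sexes from the Gap43 stage to the Gap43 and Omp stage: the log2 changes were -0.28 and -0.33 in the female libraries and 0.86 and 0.13 in the male ones. The difference of the log2 fold changes, male minus female, was 0.73, with an unadjusted p of 0.250 and an adjusted p of 1 by edgeR's quasi-likelihood test of the interaction, in which 5 of 12737 genes passed. The gene had 52 and 30 UMIs in these stages over the 4 libraries.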

How the results depend on the processing

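Of 107 recomputed counts of members called, 106 stayed within 1.5 times the reported count, and of 737 recomputed single-gene values 711 kept their direction and their side of the threshold. The exception among the counts was DESeq2 between the sexes, with 1 member (Syt1). Vamp2 into the Omp stage turned negative without scaling (-0.057) and with the cut-offs doubled (-0.0205), and passed with DESeq2, without a filter, with the cut-offs halved, with doublets kept, without barcodes under 4000 UMIs and without female replicate 2. Stx1a into the Gap43 stage turned to -0.41 with the Tex15 stage taken from 5 UMIs, an alternative chosen after seeing the data. At low counts, Slc17a7 ranged from -0.223 to 0.0508 into the Omp stage with 1 library left out, turning positive without male replicate 2, and from -0.00383 to 0.426 between the sexes, turning negative without male replicate 1. The cause was not tested in any of these. With the replicate number as a block, 0 members and 1 gene passed between the sexes. Same-numbered libraries deviated together with r = 0.33 over 7128 genes, but with 2 pairs they share only a number. Syt1 between receptors did not pass with at least 20 barcodes per library (adjusted p = 0.0726, edgeR). The fewest UMIs stood behind Slc17a7 (310 in the Omp stage, at 2.42 CPM) and Stx1a between receptors (a median of 12 per sum), and the part of depth in their calls was not tested.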

Other observations

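Barcodes outside the gates also held the members. The 3485 barcodes in no gate, with a median of 2742 UMIs, had 39.5 ± 3.14 CPM of Slc17a6, 61.9 ± 8.34 CPM of Snap25, 105 ± 14.9 CPM of Syt1 and 123 ± 6.72 CPM of Vamp2 (SD, n = 4). The 4399 barcodes with markers of more than 1 class, with a median of 14342 UMIs, had 75.7 ± 5.49 CPM of Slc17a6, 143 ± 7.10 CPM of Snap25 and 248 ± 11.1 CPM of Syp (SD, n = 4). Of these, 1327 had sustentacular markers with Tex15 and 1225 had ciliated cell markers with Omp.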
